A study of Oryza sativa with 30 samples.

Results

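PSBS1 (Os01g0869800) and PSBS2 (Os04g0690800) are the 2 rice genes annotated in the deposited tables as the photosystem II 22 kDa protein, usually called PsbS. They were chosen by gene name in 1 table of untreated leaves and matched by gene identifier to the other tables, which listed 38978 genes for 20 libraries and 40718 genes for 10 libraries, with 36677 genes in both. One of the tables named Os04g0690800 only as a photosystem II subunit, so the identifier and not the name carried the match. By the coordinates in the tables, whose genome build is not given in the sources used here, PSBS1 lay on chromosome 1 from 37697024 to 37699582 and PSBS2 on chromosome 4 from 35337067 to 35338179, both on the plus strand. The counted length of PSBS1 was 1064 bases within a span of 2559 bases, whereas that of PSBS2 was 1113 bases and equal to its span. Neither gene overlapped another listed gene. The genes are paralogs, and how the counting treated reads that fit both is not stated, so a low level of one member beside a high level of the other is uncertain to that extent.

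PsbS is a protein of the thylakoid membrane that senses the acidification of the lumen in strong light and switches on energy-dependent quenching, the fast release of absorbed light energy as heat. The xanthophyll cycle, in which violaxanthin de-epoxidase makes zeaxanthin and zeaxanthin epoxidase removes it, raises this quenching, and cyclic electron flow through PGR5 and PGRL1 helps to build the proton gradient that PsbS senses. Low temperature slows the use of light energy in carbon fixation, so leaves held in the cold in the light depend on such dissipation. In rice, PSBS1 is known as the member that carries most of the quenching.

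Leaf RNA came from seedlings grown for 14 days on 0.5-strength MS medium at 26 °C with 13 h of light and 11 h of dark. The wild types were labelled DJ, ATM and TOP6A3, with ATM and TOP6A3 carrying the names of the genes mutated in atm-1 and top6a3, and DJ standing beside ku70. The mutants were ku70, atm-1, atr and top6a3, and the further lines were TOP6A3-OE1, labelled as an overexpression line, and TOP6A3-OE1_atm-2, the same overexpression with an atm-2 mutation. KU70, ATM and ATR act in the recognition and signalling of DNA breaks, and TOP6A3 is a subunit of a topoisomerase VI complex. Seedlings were untreated (3 libraries each of ATM, atm-1 and top6a3, 2 each of DJ and ku70, 1 each of TOP6A3 and atr), were sampled 6 h after gamma irradiation at 1 Gy per minute with 70 Gy (3 libraries each of ATM and atm-1, 1 of atr) or 40 Gy (2 each of DJ and ku70, 1 each of TOP6A3-OE1 and TOP6A3-OE1_atm-2), or were kept at 4 °C for 24 h (1 library each of ATM and atm-1). The labels give no promoter for the overexpression, no wild type for atr, no number of plants per library and no sampling time for untreated seedlings, and a separate label places the growth of all plant material in paddy fields.

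The values were FPKM, a read count divided by gene length and by a library size set by the authors. Between 10364400 and 16477100 reads per library could be recovered from them. The size used in the division was not the total of these reads. It was 11854200 in untreated ku70 replicate 1, with 14653500 reads, and 17907800 in irradiated ku70 replicate 1, with 14307600 reads. Differences in FPKM between groups depend on this size. The libraries of DJ, ku70 and the overexpression lines were scaled by the authors apart from the others, so tests were made within each set and levels are not compared across the sets. In the larger set, untreated atm-1 replicate 1 and ATM 70 Gy replicate 3 stood apart: 1.53% and 1.70% of their detected genes had 1 to 10 reads, against 10.8% to 21.77% in the other 18 libraries. In the smaller set the share was 1.22% to 8.30% in DJ and ku70, 5.80% in TOP6A3-OE1 and 20.79% in TOP6A3-OE1_atm-2. Of the mesophyll markers, the 3 RBCS genes and OsRcaII were present in all 30 libraries, the meristem gene OSH1 was at 0 in all 30, and the root gene RCc3 was at 0 in 19 of 20 and 9 of 10 libraries. In these bulk samples, fewer cells of a type and less RNA per cell cannot be told apart.

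PSBS1 was among the most abundant leaf transcripts and PSBS2 was a minor copy. PSBS1 ranged from 282 to 4711 FPKM over the larger set (median 1593) and from 99.9 to 4888 FPKM over the smaller (median 1550), and its rank by FPKM within a library lay between 5 and 1056. PSBS2 ranged from 0.703 to 430 FPKM (median 164) and from 2.71 to 431 FPKM (median 151), with ranks between 153 and 19499. PSBS1 was the higher of the members in all 30 libraries. The highest PSBS1 level was 16.7 times the lowest in the larger set and 48.9 times in the smaller; for PSBS2 these ratios were 612 and 159.

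In untreated wild-type leaves, PSBS1 was at 2458, 2342 and 3541 FPKM in the 3 ATM libraries, at 2791 FPKM in TOP6A3 and at 2889 and 2336 FPKM in DJ. PSBS2 was at 275, 95.7 and 417 FPKM in ATM, at 430 FPKM in TOP6A3 and at 67.3 and 144 FPKM in DJ. The PSBS2 values of ATM thus spread more, relative to their mean, than those of PSBS1 in the same libraries. The untreated atm-1 libraries spread most: PSBS1 was at 282, 1661 and 4711 FPKM and PSBS2 at 51.4, 282 and 429 FPKM, with replicate 1, a library that stands apart as given above, lowest for both. The atr control held 1740 FPKM of PSBS1 and 280 FPKM of PSBS2.

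Ordered by mean FPKM in the larger set, PSBS1 ran from TOP6A3 and ATM controls (2791 and 2780 ± 661, SD, n = 3, in ATM) through untreated atm-1 (2218 ± 2266, n = 3), irradiated atm-1 (1767 ± 427, n = 3), the atr control (1740), irradiated ATM (1468 ± 352, n = 3), top6a3 (1287 ± 179, n = 3) and cold atm-1 (1238) to cold ATM (474) and irradiated atr (415). Of the 9 neighbouring pairs in that order, 7 had overlapping ranges; the steps from cold atm-1 to cold ATM and from there to irradiated atr, each between single libraries, did not. PSBS2 ran from the TOP6A3 control (430) through the controls of atr (280), ATM (262.5 ± 161, n = 3), atm-1 (254 ± 190, n = 3) and top6a3 (232 ± 47.1, n = 3) to irradiated atr (145), ATM (121 ± 63.5, n = 3) and atm-1 (114 ± 16.0, n = 3), and fell off to cold atm-1 (1.48) and cold ATM (0.703). Here 5 of 9 neighbouring pairs overlapped. In the smaller set the order of PSBS1 was ku70 control (4751 ± 194, n = 2), DJ control (2613 ± 390.5, n = 2), irradiated DJ (1550 ± 521, n = 2), TOP6A3-OE1_atm-2 (755), irradiated ku70 (740 ± 37.9, n = 2) and TOP6A3-OE1 (99.9), with 1 of 5 neighbouring pairs overlapping. The order of PSBS2 was irradiated DJ (379 ± 72.9, n = 2), irradiated ku70 (178.5 ± 15.0, n = 2), ku70 control (151 ± 11.2, n = 2), DJ control (105 ± 54.0, n = 2), TOP6A3-OE1_atm-2 (7.41) and TOP6A3-OE1 (2.71), also with 1 of 5 overlapping. In both sets the groups were ordered by these same values, and single libraries cannot overlap each other. With 1 or 2 libraries a group in the smaller set, few overlaps do not show that the order is resolved.

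**Figure D1:**
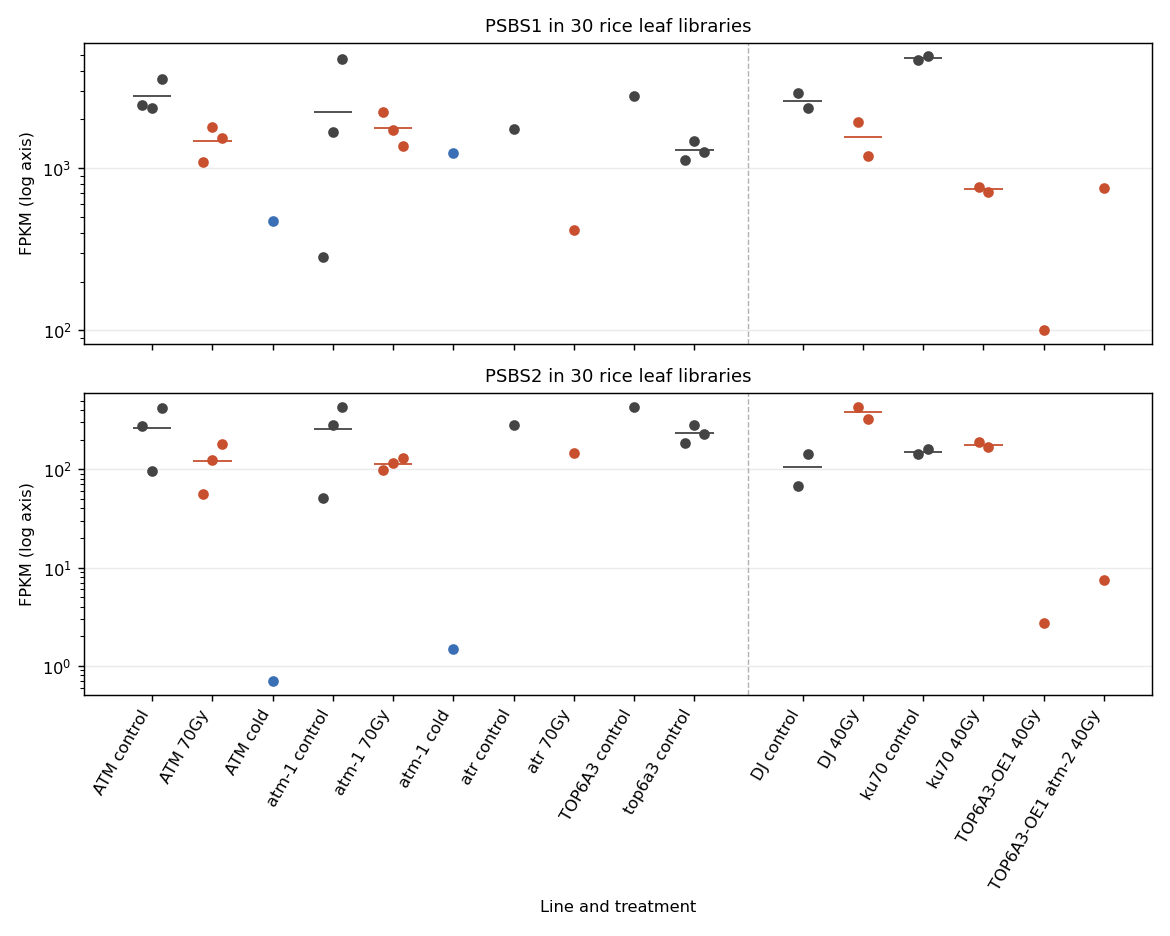
FPKM of PSBS1 (upper) and PSBS2 (lower) in each of the 30 libraries, on log axes, by line and treatment; each point is a library, lines are group means where a group has more than 1 library, and untreated libraries are grey, irradiated red and cold blue. The dashed line separates the sets scaled apart by the authors. Cold ATM and atm-1 sit at 0.703 and 1.48 FPKM of PSBS2, below all other libraries.

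The cold comparison asked how the genes behaved in chilled leaves of the ATM wild type and of atm-1, with 1 cold library beside 3 controls in each line. PSBS2 fell to near the limit of detection in both lines. It stood at 0.703 FPKM in cold ATM, from 7 reads (95% Poisson interval 0.283 to 1.45 FPKM, counting error only), and at 1.48 FPKM in cold atm-1, from 15 reads (0.828 to 2.44 FPKM). Every control of these lines was at 51.4 FPKM or more, so the groups did not overlap in either line, as was so for 38.8% of all genes tested in the direction of a fall in ATM and 22.1% in atm-1. The fitted difference was -7.04 (SE 1.02) on the log2(FPKM + 1) scale in ATM, with an adjusted p of 0.000871, and -6.23 (SE 1.02) in atm-1, with an adjusted p of 0.00157 (limma, Benjamini-Hochberg over 24582 genes). Genes called lower made up 6.84% of those tested in ATM and 6.13% in atm-1. As ratios of mean FPKM these are 374-fold and 172-fold lower levels.

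PSBS1 did not pass the test in the same chilled leaves. Cold ATM held 474 FPKM against 2342 to 3541 FPKM in its controls, below all 3. The fitted difference of -2.52 (SE 1.08, 95% interval -4.87 to -0.18) had an unadjusted p of 0.0369 and an adjusted p of 0.139. Cold atm-1 held 1238 FPKM, within the range of its controls of 282 to 4711 FPKM, with a difference of -0.07 (SE 1.08, interval -2.42 to 2.27) and an adjusted p of 1. Its direction rested on single controls, with -1.18 without replicate 1, 0.10 without replicate 2 and 0.85 without replicate 3. With untreated atm-1 replicate 1 and ATM 70 Gy replicate 3 left out, the PSBS1 difference in ATM passed (adjusted p = 0.00781), as it did with library weights (adjusted p = 0.000408). Fitted to the groups compared alone, PSBS1 in ATM passed (adjusted p = 0.0396) and PSBS2 in atm-1 did not (adjusted p = 0.356), and with limma-voom on the recovered reads PSBS2 passed in neither line (adjusted p = 0.13 and 0.209). The summed level of the 4 mesophyll markers was 5916 FPKM in cold ATM, below its controls of 8479 to 13260 FPKM, and 10080 FPKM in cold atm-1, within its controls of 5755 to 10350 FPKM; their part in the result was not tested.

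The 40 Gy experiment compared irradiated with untreated leaves of DJ and of ku70, a mutant of the break-binding protein KU70. PSBS1 was at 2889 and 2336 FPKM in untreated DJ and at 1918 and 1182 FPKM after irradiation. In ku70 it was at 4614 and 4888 FPKM untreated and at 767 and 713 FPKM after irradiation. Irradiated libraries were below untreated ones in both lines, and irradiated ku70 lay below irradiated DJ although untreated ku70 lay above untreated DJ. In ku70 PSBS1 fell by 2.68 on the log2 scale (SE 0.28), a 6.42-fold lower mean level, with an adjusted p of 0.00959; 7.08% of the 23063 genes tested were called lower there, and 32.6% were lower without overlap. The median of all genes moved by -0.29 in that comparison, and relative to it PSBS1 changed by -2.39. In DJ the difference was -0.79 (SE 0.28) with an adjusted p of 0.331, where 0.546% of genes were called lower and 21% were lower without overlap; quantile normalization turned it to 0.23.

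PSBS2 took another course. It was at 67.3 and 144 FPKM in untreated DJ and at 431 and 328 FPKM after 40 Gy, a 3.60-fold higher mean level without overlap, as 17.3% of genes were higher in DJ. The difference of 1.92 (SE 0.379, interval 0.96 to 2.88) had an unadjusted p of 0.00328 and did not pass over all genes (adjusted p = 0.11), where 0.481% were called higher; without untreated DJ replicate 2 it did (adjusted p = 0.0368). In ku70 PSBS2 was at 143 and 159 FPKM untreated and at 189 and 168 FPKM irradiated, a difference of 0.24 (SE 0.379, interval -0.72 to 1.20) with an adjusted p of 0.751; 2.84% of genes were called higher and 18.9% were higher without overlap.

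Differences between the responses of ku70 and DJ did not pass for either member. The interaction was -1.89 (SE 0.396, interval -2.89 to -0.89) for PSBS1, with an adjusted p of 0.11, and -1.68 (SE 0.536, interval -3.04 to -0.33) for PSBS2, with an adjusted p of 0.231. In this interaction 1.15% of genes were called, and the median of all genes was -0.27. With limma-voom the interaction of PSBS1 passed (adjusted p = 0.0408). Untreated ku70 exceeded untreated DJ in PSBS1 by 0.87 (SE 0.28, adjusted p = 0.485) and in PSBS2 by 0.61 (SE 0.379, adjusted p = 0.855), where 0.62% of genes were called; the PSBS1 ranges did not overlap, as 20.6% of genes were higher. At 40 Gy the differences were -1.02 (SE 0.28, adjusted p = 0.143) and -1.07 (SE 0.379, adjusted p = 0.228), where 2.75% were called and 22.3% were lower without overlap, both members among them.

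The call of PSBS1 in ku70 rested on 2 libraries a group. Without either of the untreated ku70 libraries the adjusted p was 0.0663 and 0.0718, and after quantile normalization the difference was -0.98 (adjusted p = 0.11). Markers moved with this comparison. The summed level of the mesophyll markers was 27960 to 32510 FPKM in untreated and 2412 to 2662 FPKM in irradiated ku70, and 15630 to 31310 and 5385 to 7833 FPKM in DJ. Of the markers of dividing cells, OSH1 was at 0, and OsPCNA, which also serves DNA repair, stood at 11.8 to 13.8 FPKM in untreated and 150.3 to 164 FPKM in irradiated ku70, against 11.5 to 13.4 and 18.6 to 29.3 FPKM in DJ. The part of these cells or transcripts in the fall of PSBS1 was not tested.

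At 70 Gy, ATM and atm-1 leaves were compared with their controls, 3 libraries a group. PSBS1 was at 1092, 1790 and 1524 FPKM in irradiated ATM, below every control of that line (2342 to 3541 FPKM), as were 13.9% of all genes. The difference was -0.93 (SE 0.762, interval -2.58 to 0.73, unadjusted p = 0.248, adjusted p = 0.669), and 0.0936% of genes were called lower. It did not exceed the spread shared by all groups, which includes that of untreated atm-1 (282 to 4711 FPKM). Over 16 alternative settings of the limma fit the difference ran from -1.08 to -0.73, with an adjusted p of 0.0973 to 0.83. PSBS2 was at 56.0, 125 and 183 FPKM after irradiation against 95.7 to 417 FPKM in the controls. These ranges overlapped, and the difference of -1.03 (SE 0.72) had an adjusted p of 0.602. With library weights it passed (-1.31, adjusted p = 0.0129). OsPCNA stood at 8.29 to 16.6 FPKM in untreated and 68.4 to 148 FPKM in irradiated ATM, and the mesophyll markers at 8479 to 13260 and 5648 to 7775 FPKM; their part was not tested.

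In atm-1 the irradiated libraries lay within the wide range of the controls for both members. PSBS1 was at 2216, 1720 and 1366 FPKM, a difference of 0.41 (SE 0.762, interval -1.25 to 2.07, adjusted p = 0.927), and PSBS2 at 97.8, 115 and 130 FPKM, a difference of -0.70 (SE 0.72, interval -2.26 to 0.87, adjusted p = 0.819). In this comparison limma called 0% of genes, with 1877 at an unadjusted p under 0.05, and limma-voom also called 0. Without untreated atm-1 replicate 1 the sign of the PSBS1 difference turned, to -0.69 (adjusted p = 0.675), and with library weights the PSBS2 difference passed (-1.33, adjusted p = 0.0315). The interaction of line and 70 Gy was 1.34 (SE 1.08, adjusted p = 0.651) for PSBS1 and 0.33 (SE 1.02, adjusted p = 0.943) for PSBS2, with 0.167% of genes called. Between atm-1 and ATM the adjusted p of the members was 0.711 and 0.937 in untreated leaves, where 0% of genes were called by limma (1330 at an unadjusted p under 0.05) and 0 by limma-voom, and 1 for both at 70 Gy, where 0.33% were called.

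The atr line had 1 library in each arm, so its values stand without a test. PSBS1 was at 1740 FPKM untreated (95% Poisson interval 1721 to 1759) and 415 FPKM after 70 Gy (406 to 424), and PSBS2 at 280 FPKM (273 to 288) and 145 FPKM (139 to 150). The log2 differences were -2.07 and -0.95; 14.4% of genes were lower by 1 or more. The mesophyll markers summed to 8988 FPKM in the untreated and 1205 FPKM in the irradiated library, the lowest of the 20 libraries of that set, and OsPCNA stood at 16.1 and 41.8 FPKM; their part was not tested.

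The top6a3 mutant was set beside the single library of its wild type, without treatment. PSBS1 was at 1126, 1480 and 1254 FPKM in top6a3 and at 2791 FPKM in TOP6A3, and PSBS2 at 186, 280 and 231 FPKM against 430 FPKM. All mutant libraries were below the wild-type library for both members, as were 36.4% of genes. The differences were -1.13 (SE 1.08, interval -3.47 to 1.22) with an adjusted p of 0.547 and -0.90 (SE 1.02, interval -3.12 to 1.31) with an adjusted p of 0.621; 4.7% of genes were called lower. The mesophyll markers summed to 5318 to 6305 FPKM in top6a3 and 8871 FPKM in TOP6A3, and the secondary wall markers (OsCesA4, CESA7 and BC6) to 11.7 to 22.5 and 2.88 FPKM; their part was not tested. Of the other groups, untreated ATM reached the highest sum of the secondary wall markers, 11.69 FPKM, just above the lowest top6a3 library at 11.65 FPKM.

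Between the overexpression lines at 40 Gy, again single libraries, PSBS1 was at 99.9 FPKM in TOP6A3-OE1 (interval 95.7 to 104) and 755 FPKM in TOP6A3-OE1_atm-2 (741 to 768). PSBS2 was at 2.71 FPKM from 58 reads (2.05 to 3.50) and 7.41 FPKM from 128 reads (6.18 to 8.81). TOP6A3-OE1 held less of both members by -2.90 and -1.18 on the log2(FPKM + 1) scale, where 15.9% of genes were lower by 1 or more. The mesophyll markers summed to 8144 FPKM in TOP6A3-OE1 and 20800 FPKM in TOP6A3-OE1_atm-2, and OsPCNA stood at 34.6 and 7.21 FPKM; their part in the difference was not tested. The labels give no untreated library of these lines.

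**Figure D2:**
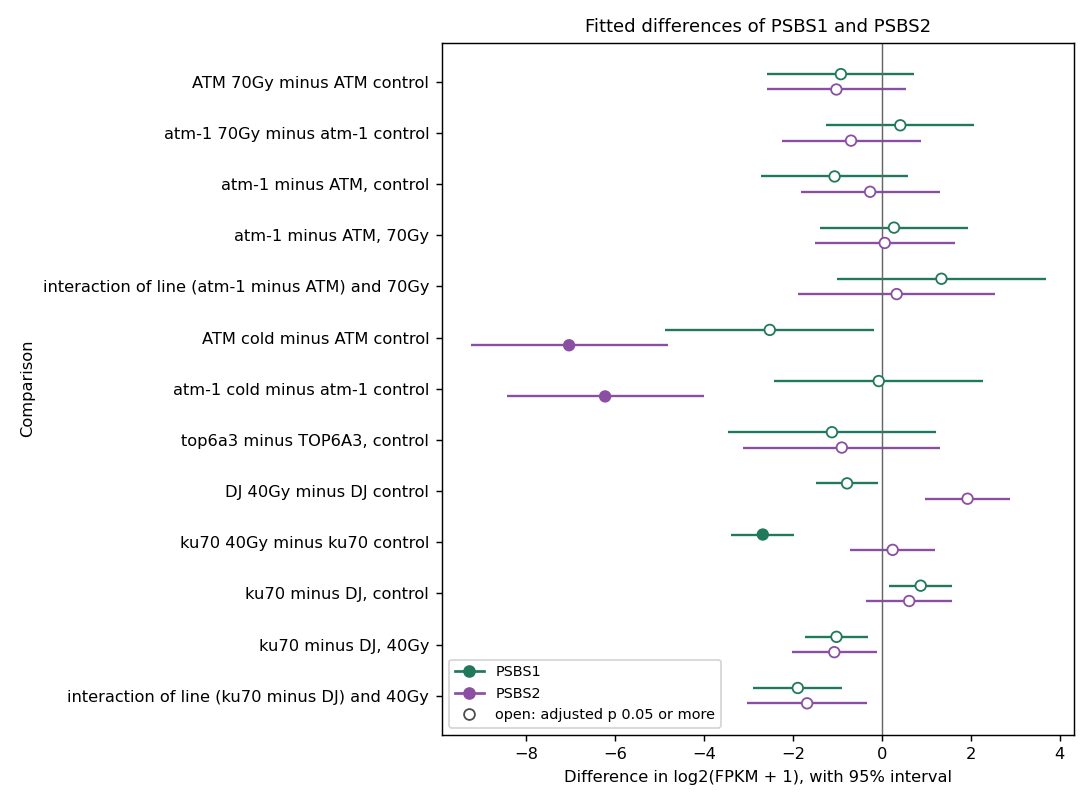
Fitted differences in log2(FPKM + 1) of PSBS1 (green) and PSBS2 (purple) with 95% intervals from limma in 13 comparisons; filled points had an adjusted p under 0.05. The filled points are PSBS2 in cold ATM (-7.04) and cold atm-1 (-6.23) and PSBS1 in irradiated ku70 (-2.68).

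The ratio of the FPKM of the members was taken within each library, where the scaling of the library cancels. PSBS1 exceeded PSBS2 by a factor of 8.93, 24.5 and 8.50 in untreated ATM, 5.49, 5.88 and 11.0 in untreated atm-1, 6.21 in atr, 6.49 in TOP6A3 and 5.28 to 6.05 in top6a3. In the cold the factor was 675 in ATM and 837 in atm-1, above all other libraries. After 70 Gy it was 8.34 to 19.5 in ATM, 10.5 to 22.7 in atm-1 and 2.87 in atr. In untreated DJ it was 42.9 and 16.3 and in untreated ku70 32.2 and 30.8, while all 4 libraries irradiated with 40 Gy lay close together, at 4.45 and 3.61 in DJ and 4.06 and 4.25 in ku70. The factor was 36.9 in TOP6A3-OE1 and 102 in TOP6A3-OE1_atm-2, both also irradiated with 40 Gy.

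In the share of the summed FPKM of both genes, PSBS2 made up 4.03% ± 2.48 (SD, n = 2) in untreated and 20.03% ± 2.38 (n = 2) in irradiated DJ, and 3.08% ± 0.0987 (n = 2) and 19.4% ± 0.513 (n = 2) in ku70. The sum itself was 2718 ± 337 and 1929.5 ± 594 FPKM in DJ, and 4902 ± 205 and 919 ± 52.9 FPKM in ku70. In DJ the larger fitted difference behind this was that of PSBS2 (1.92), and in ku70 that of PSBS1 (-2.68). In the cold its share was 0.148% in ATM and 0.119% in atm-1, against 3.93% to 15.4% in their controls.

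For the tests, 1 FPKM was added to each member before the log2 ratio was taken, so these values depend on the scaling where PSBS2 is low. Over DJ and ku70 together, the log2 ratio was lower by -2.81 after 40 Gy, in 4 of 4 irradiated libraries, with p = 0.0556 in an exact two-sided permutation test within lines; this is the smallest p that the 36 arrangements allow, and the Benjamini-Hochberg value over the family of 4 ratio tests was 0.125. Over ATM and atm-1, 70 Gy moved the ratio by 0.60 (exact permutation p = 0.165, adjusted 0.22; exact permutation p = 0.045 without ATM control replicate 2), and atm-1 differed from ATM by -0.30 (exact permutation p = 0.48, adjusted 0.48). The cold ratio was compared after the values had been seen. It was higher by 5.33, with an exact permutation p of 0.0625 (adjusted 0.125), the smallest that 16 arrangements allow. Without the added 1 FPKM the cold difference was 6.33 (exact permutation p = 0.0625).

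**Figure D3:**
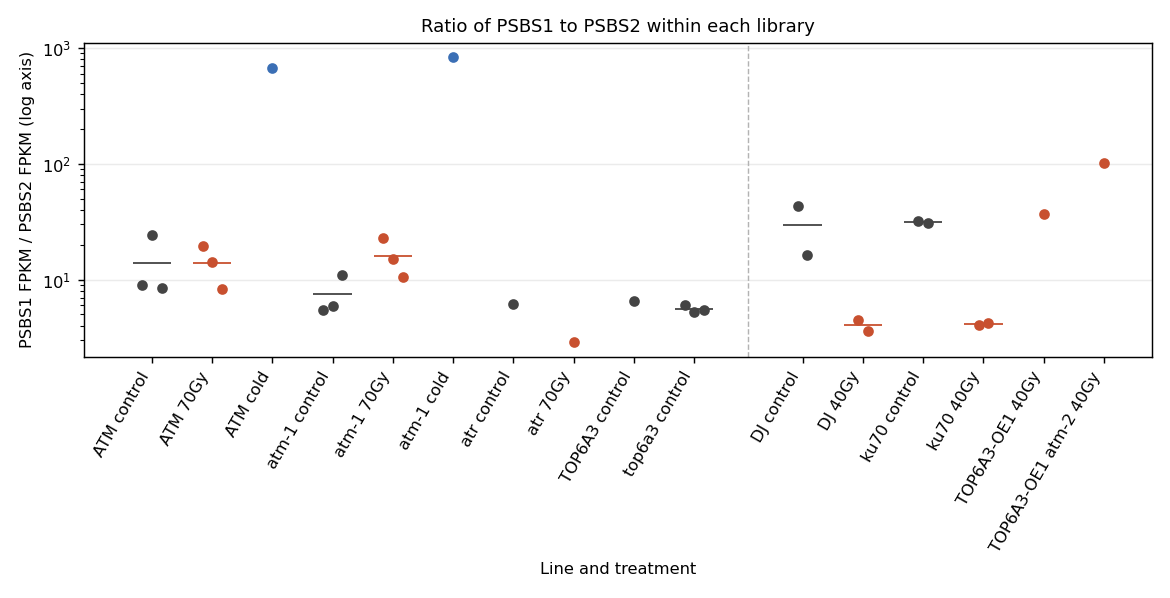
PSBS1 FPKM divided by PSBS2 FPKM in each library, on a log axis, by line and treatment; points are libraries, colours as for the plot of levels. The cold libraries lie at 675 and 837 and the irradiated DJ and ku70 libraries between 3.61 and 4.45.

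Other genes of photoprotection were described as a list of 32, of which 26 passed the filter on low values in the larger set and 27 in the smaller. It held the xanthophyll cycle and the enzymes that make its pigments, the light stress proteins of the antenna family (early light-inducible, one-helix and stress-enhanced proteins), the genes of cyclic electron flow and thylakoid kinases, and the lipocalin of slow quenching. In cold ATM 1 of 26 rose and 7 fell, with a median of -0.87 against -0.03 over all genes; in cold atm-1 2 rose and 6 fell, with a median of 0.24 against 0. In top6a3 1 rose and 4 fell (median -1.20 against 0.06). Of all genes tested, 7.38% were called higher and 6.84% lower in cold ATM, 9.46% and 6.13% in cold atm-1, and 8.18% and 4.7% in top6a3. In irradiated ku70 10 of 27 fell (median -1.79 against -0.29), where 7.08% of all genes were called lower, and limma called 0 higher (1 at an unadjusted p under 0.05; limma-voom 0). In irradiated DJ limma called 0 (3 higher and 5 lower at an unadjusted p under 0.05; limma-voom 0), with a median of -0.52 against 0. At 70 Gy limma called 0 of 26 in ATM (4 lower at an unadjusted p under 0.05) and 0 in atm-1 (1 higher and 2 lower), and limma-voom 0 in both.

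These counts depended on single libraries and on the fit. Without untreated atm-1 replicate 1 and ATM 70 Gy replicate 3, 13 fell in cold ATM, 9 in cold atm-1 and 14 in top6a3. Calls over all genes, in either direction, rose there too, to 8736, 8288 and 7965 from 3497, 3832 and 3166. A rise in calls was thus not confined to the list. The counts of the list cover falls alone, so the sizes of the rises cannot be compared. In irradiated ku70 the number that fell dropped without either untreated library, and so did the calls over all genes. It dropped without irradiated replicate 2 as well. Each of these ku70 fits leaves 1 library in a group. The number that fell also dropped in top6a3 without replicate 1 or replicate 3, and in cold ATM without control replicate 3. Fitted to the groups compared alone, 0 fell in cold atm-1 and 14 in top6a3, and with limma-voom 4 fell in cold ATM and 1 in top6a3. Over all genes, the fits to the groups alone called 0 and 6845, and limma-voom called 1991 and 1853, in either direction.

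The 6 genes of the list with the largest mean FPKM were looked at singly. OsPGR5 (Os08g0566600), which takes part in cyclic electron flow, fell in irradiated ku70 (-2.10, SE 0.343, adjusted p = 0.0267), from 826 ± 31.5 to 193 ± 25.2 FPKM (SD, n = 2), and had a difference of -0.84 in cold ATM (adjusted p = 0.552) and -1.21 in cold atm-1 (adjusted p = 0.378). Os03g0857400, described as PGR5-like protein 1A, fell in irradiated ku70 (-2.15, adjusted p = 0.0124), in cold ATM (-2.20, adjusted p = 0.00198) and in cold atm-1 (-1.34, adjusted p = 0.0252). In levels it went from 252 ± 27.5 FPKM (n = 3) to 53.8 FPKM in cold ATM. The one-helix proteins Os01g0589800 (OHP2) and Os05g0292800 (OHP1), whose Arabidopsis counterparts help to assemble photosystem II, both fell in top6a3 (-1.80, adjusted p = 0.0226, and -1.68, adjusted p = 0.0403). Os05g0292800 also fell in irradiated ku70 (-1.85, adjusted p = 0.0174), and Os01g0589800 in cold ATM (-1.81, adjusted p = 0.0219). Os10g0395200, described as stress enhanced protein 1, fell in irradiated ku70 (-2.49, adjusted p = 0.0378).

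The early light-inducible protein gene Os07g0178800, whose family binds pigments set free in stressed thylakoids, fell in the cold as PSBS2 did. It was at 504 ± 589 FPKM (SD, n = 3) in untreated ATM and 0.132 FPKM in cold ATM, and at 730 ± 514 FPKM (n = 3) in untreated and 0.259 FPKM in cold atm-1, with differences of -7.78 (adjusted p = 0.00989) and -8.71 (adjusted p = 0.00475). This gene was lower in top6a3 too (-6.07), where PSBS2 did not pass. The level of Os07g0178800 was 20.4 ± 17.3 FPKM (n = 3) there against 1159 FPKM in the single TOP6A3 library. Os07g0178800 ran from 42.5 to 1167 FPKM over the untreated ATM libraries and from 7.40 to 39.99 FPKM in top6a3. After 40 Gy it was at 73.1 ± 13.8 FPKM (n = 2) in DJ against 13.2 ± 3.81 FPKM (n = 2) in controls, a difference of 2.40 that did not pass (adjusted p = 0.357). In ku70 the difference was -1.54 (adjusted p = 0.363).

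The light-harvesting antenna proteins and the subunits of photosystem II, the complex that PsbS serves, were counted in the same way. Of 16 antenna genes that passed the filter, 11 fell in cold ATM (median -3.64), 9 in cold atm-1 (-1.92) and 10 in irradiated ku70 (-2.76), while 10 rose in top6a3 (2.79). The medians of all genes there were -0.03, 0, -0.29 and 0.06, and the shares of all genes called in those directions 6.84%, 6.13%, 7.08% and 8.18%. In irradiated DJ 1 antenna gene was called higher and 1 lower (median -1.75 against 0), where 0.481% and 0.546% of all genes were. The DJ call lower was lost without either untreated library or irradiated replicate 1 and the call higher without either irradiated library; limma-voom called 0 higher and 3 lower, and the fit to the groups compared alone 0. Of the photosystem II genes, 4 of 14 fell in cold ATM (-1.93) and 8 of 13 in irradiated ku70 (-2.92). In cold atm-1 limma called 0 of 14 (-0.62; 2 lower at an unadjusted p under 0.05; limma-voom 0). PSBS1, at -2.52 in cold ATM and -2.68 in irradiated ku70, lay nearer to these medians than PSBS2 did in both comparisons. In ku70 fewer antenna and photosystem II genes fell without either untreated library, and fewer were called over all genes too. Fewer antenna genes fell without irradiated replicate 2 as well. Each of these ku70 fits leaves 1 library in a group. Without untreated atm-1 replicate 1, 4 photosystem II genes fell in cold atm-1, and fitted to the groups compared alone 0 antenna genes did. Over all genes these fits called 6108 and 0, in either direction.

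**Figure D4:**
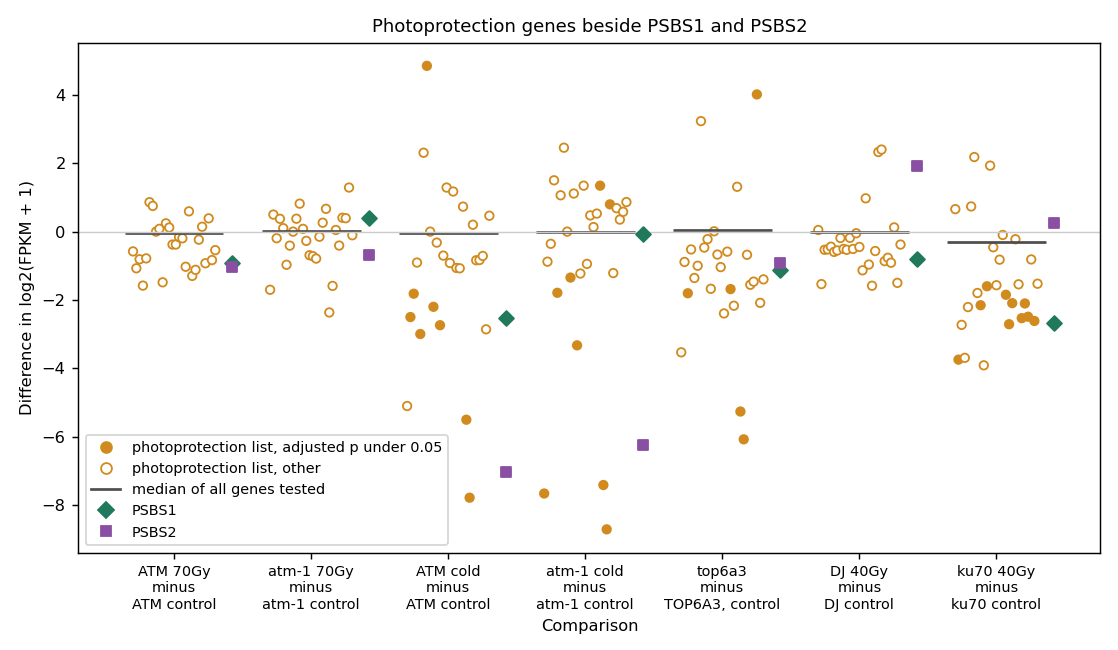
Difference in log2(FPKM + 1) of each gene of the photoprotection list that passed the filter in 7 comparisons (circles, filled where the adjusted p was under 0.05), the median over all genes tested (grey bars), PSBS1 (green diamonds) and PSBS2 (purple squares). PSBS2 lies among the lowest points in the cold, at -7.04 and -6.23, and above the median of all genes in DJ and ku70 at 40 Gy, at 1.92 and 0.24.

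To see which genes ran in parallel with each member, 11965 genes with a mean of 5 FPKM or more in both sets were ranked by the lower of their Pearson's r with it over the 20 and over the 10 libraries. These correlations are descriptions: the points share groups, depth and library composition, so no p is given. The 5 genes most like PSBS1 were Amt (Os04g0623800), aminomethyltransferase of the mitochondrial glycine cleavage system of photorespiration (r = 0.921 and 0.909); Os12g0480100, described as the one-helix protein OHP1 and itself on the list above (0.932 and 0.881); Os03g0278900, a subunit of chloroplast ATP synthase (0.900 and 0.876); Os03g0100200, described as a pterin carbinolamine dehydratase (0.862 and 0.926); and Os02g0122500, with a domain of unknown function (0.862 and 0.908). The 5 most like PSBS2 were Os02g0206100, a UDP-glycosyltransferase (0.844 and 0.905), Os01g0152700, a histone H2B (0.841 and 0.835), Os06g0206900 and Os01g0168300, without a described function (0.811 and 0.855, 0.794 and 0.861), and the early light-inducible Os07g0178700 (0.796 and 0.869). Os07g0178700 was listed at 0 in both cold libraries and in TOP6A3-OE1. PSBS1 and PSBS2 had r = 0.531 and 0.656 with each other, which placed PSBS2 at rank 404 for PSBS1 and PSBS1 at rank 219 for PSBS2. By Spearman's rho, 2 of the 5 genes named for each member were among its top 5, and the rho between the members was 0.592 and 0.127.

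In the authors' deposited table PSBS2 has a log2 fold change of -8.51 in cold ATM (adjusted p = 2.73e-17) and -7.42 in cold atm-1 (adjusted p = 4.14e-06). The authors' deposited table gives PSBS1 as -2.51 in cold ATM (adjusted p = 1.78e-07) and -0.84 in cold atm-1 (adjusted p = 0.904). For 40 Gy, the authors' deposited table has PSBS2 at 1.93 in DJ (adjusted p = 0.000944) and 0.16 in ku70 (adjusted p = 0.494), and PSBS1 at -0.67 in DJ (adjusted p = 0.337) and -2.76 in ku70 (adjusted p = 1.83e-159). In ATM at 70 Gy, the authors' deposited table has PSBS1 at -0.89 (adjusted p = 0.091) and PSBS2 at -1.48 (adjusted p = 0.12). All 10 of these values have the sign of the differences fitted to FPKM, and 5 of them have an adjusted p under 0.05, against 3 in the fit. Both come from the same libraries, so the shared signs are not independent support. For atm-1 at 70 Gy, the authors' deposited table gives log2 fold changes of 1.27 (adjusted p = 0.49) for PSBS1 and 1.09 (adjusted p = 0.255) for PSBS2, where the fit to FPKM gave 0.41 and -0.70; the atm-1 columns of that sheet in the authors' deposited table do not follow the gene identifiers of the FPKM tables.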

How the data were processed

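Leaf RNA from 30 libraries in 16 groups was prepared with a kit that keeps strand, per the labels' protocols. The authors deposited FPKM per gene and library with gene lengths; the sources used here name no aligner, counter or genome build. Multiplied by gene length, 100% of FPKM values fell within 0.01 of a whole number of reads, which recovered the reads. A workbook deposited by the authors gives log2 fold changes, p-values and adjusted p-values, and group means read here as a signal of normalised read counts; 1 column, K3, matched no group and was not used.

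Each set of libraries was fitted by limma 3.58.1 (limma-trend, R 4.3.3) on log2(FPKM + 1), keeping genes at 1 FPKM or more in 2 libraries (24582 and 23063 genes; 10 and 4 residual degrees of freedom), with a mean per group and a shared spread. A lone library is assumed to vary like the other groups. P-values were two-sided, adjusted over all genes by the method of Benjamini and Hochberg and called under 0.05; the fit was tested on simulated data. A fold change with the pseudocount of 1 understates changes of low genes. Ratios were tested by exact permutation on log2 values with the same pseudocount on each member. Tables were read with data.table (version 1.17.8) and pandas 2.3.3, and permutations were made with numpy 2.4.6 in Python 3.11.15. Poisson intervals came from scipy 1.17.1 and plots from matplotlib 3.10.9. Pseudocount, filters, scalings, limma-voom, library weights, a replicate block and leaving out libraries were tried as alternatives. The limma-voom fit took the authors' library sizes, and scaling by the total of reads was not tried.

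The members, lists and tests were chosen with earlier results of these data known. The photoprotection list came from matches of gene names and descriptions, dropping matches that the description contradicted; its 6 genes of largest mean FPKM and, for each member, the 5 genes of most similar pattern are named. Nothing says that replicates were separate plants; the p-values then measure only library spread, which may be technical. PCR duplicates cannot be recognised, so Poisson intervals cover counting error only. No sequence is printed.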

Additional observations from a re-analysis of the deposited data

How the results depend on the processing

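Of 382 alternative values of the members' 26 changes, 350 kept their direction and their side of the threshold. Of the others, 19 turned in sign, 7 gained a call and 6 lost one. Most of the 26 changes were not called as reported, so for those the same side means only that they stayed uncalled. PSBS2 stayed called in the cold except with limma-voom (-8.20 in ATM, -6.92 in atm-1) and, in atm-1, with only the groups compared (-6.23); leaving out controls gave -7.64 to -6.58 and -7.14 to -5.62. PSBS1 in irradiated ku70 was not called after quantile normalization (-0.98) and ran from -2.73 to -2.63 with a library left out (adjusted p = 0.0363 to 0.0718). Quantile normalization turned PSBS1 in irradiated DJ to 0.23. limma-voom called the PSBS1 interaction of ku70 (-1.92).

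Library weights called PSBS2 at 70 Gy in ATM (-1.31) and atm-1 (-1.33) and PSBS1 in cold ATM (-2.60), and turned PSBS1 in atm-1 at 70 Gy (-0.04), PSBS2 between atm-1 and ATM at 70 Gy (-0.05) and its interaction (-0.02). PSBS1 in cold ATM was also called with only the groups compared (-2.52; -2.63 to -2.34 with a control left out) and without both untreated atm-1 replicate 1 and ATM 70 Gy replicate 3 (-2.52). The last setting turned PSBS1 in atm-1 at 70 Gy (-0.69), PSBS1 and PSBS2 between untreated atm-1 and ATM (0.03 and 0.64) and the PSBS2 interaction (-0.21). The causes of these changes were not tested.

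Leaving out a library gave, for PSBS1, -0.69 to 1.34 in atm-1 at 70 Gy, -1.18 to 0.85 in cold atm-1 and -1.99 to 0.03 between untreated atm-1 and ATM, and for PSBS2, -0.87 to 0.64 there, -0.41 to 0.43 at 70 Gy, -0.58 to 0.94 in the 70 Gy interaction and 1.38 to 2.46 in irradiated DJ, which was called without untreated DJ replicate 2 (2.46, adjusted p = 0.0368). The ratio under 70 Gy ran from 0.46 to 0.85 and reached an exact permutation p of 0.045 without ATM control replicate 2 (0.85).

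Deviations of same-numbered libraries from their group means correlated at -0.365 to 0.226. Deviations within groups of 2 or 3 libraries depend on each other, so these values cannot show whether replicate numbers pair the libraries. A replicate block could not be used for the cold and top6a3, where an arm has 1 library. In the other comparisons it changed no member's call: PSBS1 in irradiated ku70 stayed at -2.68 (adjusted p = 0.019) and PSBS2 in DJ at 1.92 (adjusted p = 0.313). The ratio at 40 Gy stayed at -2.81, with the signs of same-numbered differences flipped (exact permutation p = 0.125). That is the smallest p this test allows with so few libraries, so it could not pass. With only the groups compared, the block moved the genes called in irradiated ku70 from 3474 to 657. Genes called numbered 1991 with limma-voom to 11781 with library weights in cold ATM (3497 as reported), 0 with only the groups compared to 12077 with library weights in cold atm-1 (3832), and 443 without an untreated library to 3474 with only the groups compared in irradiated ku70 (2287). Over all alternatives the genes called ran from 14 to 6033 in ATM at 70 Gy (129 as reported), 0 to 2649 in atm-1 (0), 0 to 416 in irradiated DJ (237) and 1853 to 11438 in top6a3 (3166). Depth limits PSBS2 in the cold, which rests on 7 and 15 reads.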

Other observations

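In the authors' deposited table for 70 Gy, the atm-1 columns did not follow the gene identifiers of the FPKM tables. Over the 106 genes of that table, the log2 values of untreated and irradiated atm-1 had Pearson's r across genes of 0.224 and 0.123 with the means computed from FPKM and gene length, against 0.999 and 0.991 for ATM and 0.998 and 0.994 for atr. With both columns sorted by size, r was 0.997 and 0.999 for atm-1. The same untreated atm-1 column in the authors' deposited table for the cold had r = 0.997 by gene, and the untreated atm-1 columns of both tables had r = 0.224 by gene over 106 genes. In the authors' deposited table for 70 Gy, PSBS1 stands at 5429 in untreated and 13070 in irradiated atm-1 and PSBS2 at 7113 and 15100, while the authors' deposited table for the cold has 30530 and 3662 for untreated atm-1. The row of the 70 Gy table whose atm-1 values lay closest to PSBS1 in the FPKM tables was that of Os01g0673800 (35150 and 28330, log2 -0.31), at a distance of 0.01 on the log2 scale against 2.91 for its own row. For PSBS2 it was that of Os12g0291100 (4217 and 1918, log2 -1.14), at 0.01 against 3.07. These atm-1 values of the authors' deposited table were therefore not used as levels of the members. In the authors' deposited table for the overexpression lines, the TOP6A3-OE1_atm-2 column had r = 0.785 by gene and 0.990 sorted, and PSBS1 and PSBS2 have log2 fold changes of -3.52 and -3.64, where the log2 ratios of their FPKM, with no pseudocount, are -2.92 and -1.45.

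For top6a3 the authors' deposited table has PSBS2 at a log2 fold change of -3.22 and PSBS1 at -1.05 against a control named K3, which is not analysed here, where the fit to FPKM against the TOP6A3 library gave -0.90 and -1.13.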
